A study of Mus musculus with 16 samples.

Results

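The 35 genes described here are those protein-coding genes of the deposited table whose symbols begin with Psm, Ube2, Ube3, Ube4, Usp, Fbxo, Fbxw, Fbxl, Trim or Rnf, out of 2438 genes in the table. They were chosen by symbol. Classes were also set by symbol: 5 proteasome genes (Psm), 5 ubiquitin-conjugating enzymes (Ube2), 24 ligases and ligase subunits (9 F-box genes, 7 ring finger genes, 8 tripartite motif genes, with 0 Ube3 and 0 Ube4 genes) and 1 deubiquitinase (Usp14). Whether each protein has the activity of its class was not checked. The deposited table is itself a selection by the authors from the same libraries (its largest adjusted p is 0.0497), so that a gene's presence in it is not itself a result below.

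RNA was sequenced from the duodenal epithelium of mice as labelled (the design text speaks of proximal small intestine tissue). The control group, called flox, comprised 9 libraries from mice with both Ephb4 alleles flanked by recombination sites and no deletion, and the KO group comprised 7 libraries from mice lacking Ephb4 in intestinal epithelial cells. The recombinase line used for the deletion is not given in the labels. Mice aged 8 weeks were put on a high fat diet, which lasted 19 weeks, so that both groups share the diet and neither shows what a standard diet would give. The labels do not tie libraries to single mice, and p-values measure the spread between these libraries.

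Ubiquitin is a small protein that cells attach to other proteins. An activating enzyme passes it to a conjugating enzyme, and a ligase brings that enzyme to the substrate and decides which protein is marked. A chain of ubiquitin can send the substrate to the proteasome, a barrel of proteolytic subunits capped by a regulatory particle with unfolding ATPases, while deubiquitinases remove or trim the chain. In the small intestine the pathway turns over damaged and short-lived proteins of cells that are renewed within days, and an inducible form of the proteasome makes peptides for antigen presentation.

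The labels were checked on Ephb4, a receptor tyrosine kinase gene on chr5:137350109-137378669. Its normalised count was 210.5 ± 94.4 in flox (SD, n = 9) and 36.6 ± 21.7 in KO (SD, n = 7). The groups did not overlap, and the two-sided exact permutation p was 8.74e-05, the smallest that 11440 splits allow. Libraries held 3592468 to 5316273 reads in the listed genes. All 12 listed of 61 markers of lymphocytes, mast and myeloid cells, stroma and endothelium were listed as higher in KO, with a summed level of 744 to 1925 in flox and 909 to 3332 in KO. Of 20 proliferation markers 13 were listed, all as higher (sum 968 to 3061 in flox and 2443 to 5181 in KO). Of 15 enterocyte markers 6 were listed, all as lower (sum 534888 to 758153 in flox and 341981 to 566375 in KO). In 5 flox libraries the exocrine pancreas markers other than Spink1 summed to 7342 to 145473, against 392 to 518 in the other 4 and 384 to 1799 in KO. With Spink1 counted, 25 of 32 of these markers were listed, all as lower. These marker levels move with the groups, and their part in the results below was not tested beyond the fits named there. In bulk RNA, fewer cells of a type and less RNA per cell cannot be told apart.

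Most of the 35 genes were lower in KO by small amounts, and the few that were higher were mainly low-level tripartite motif and conjugating enzyme genes. The authors' deposited table listed 25 of the 35 as lower and 10 as higher (Psmd5, Ube2d1, Ube2v2, Ube2w, Trim27, Trim35, Trim37, Trim44, Trim59 and Usp14). Listed genes were 14.8% of the 16488 genes that the authors' adjustment covered, 7.81% lower and 6.97% higher. The means of the lower genes differed by 1.14-fold (Rnf41) to 1.43-fold (Psmb8), and those of the higher genes by 1.19-fold (Psmd5) to 2.25-fold (Trim35). Of the 24 ligase genes 19 were listed as lower, among them all 9 F-box and all 7 ring finger genes, where 52.8% of all listed genes were lower.

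Differences were checked with limma on log2(normalised count + 1), fitted to all listed genes and adjusted over all 16488 genes with unlisted genes at a p of 1. In this fit 15 of the 35 genes fell and 3 rose at an adjusted p under 0.05. Of the 2339 listed genes fitted, 54.3% passed, 35.1% as lower and 19.2% as higher, so the share of these genes that passed was near that of the table. At an unadjusted p under 0.05 the limma count was 35 of 35, against 98.6% of the table, which the authors' selection had largely fixed. The genes that fell were Psmc1, Ube2j2, Fbxl8, Fbxl18, Fbxl19, Fbxo9, Fbxo22, Fbxo46, Fbxw8, Fbxw9, Rnf114, Rnf121, Rnf167, Trim8 and Trim25. Those that rose were Ube2w, Trim59 and Usp14. A complete gap between the groups was seen for 3 genes (Fbxw8, Ube2j2 and Ube2w), against 7.26% of listed genes. All 7 KO libraries lay below the flox median for 22 of the 25 lower genes, against 81.9% of genes listed as lower, and above it for 6 of the 10 higher genes, against 59.7% of genes listed as higher.

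**Figure D1:**
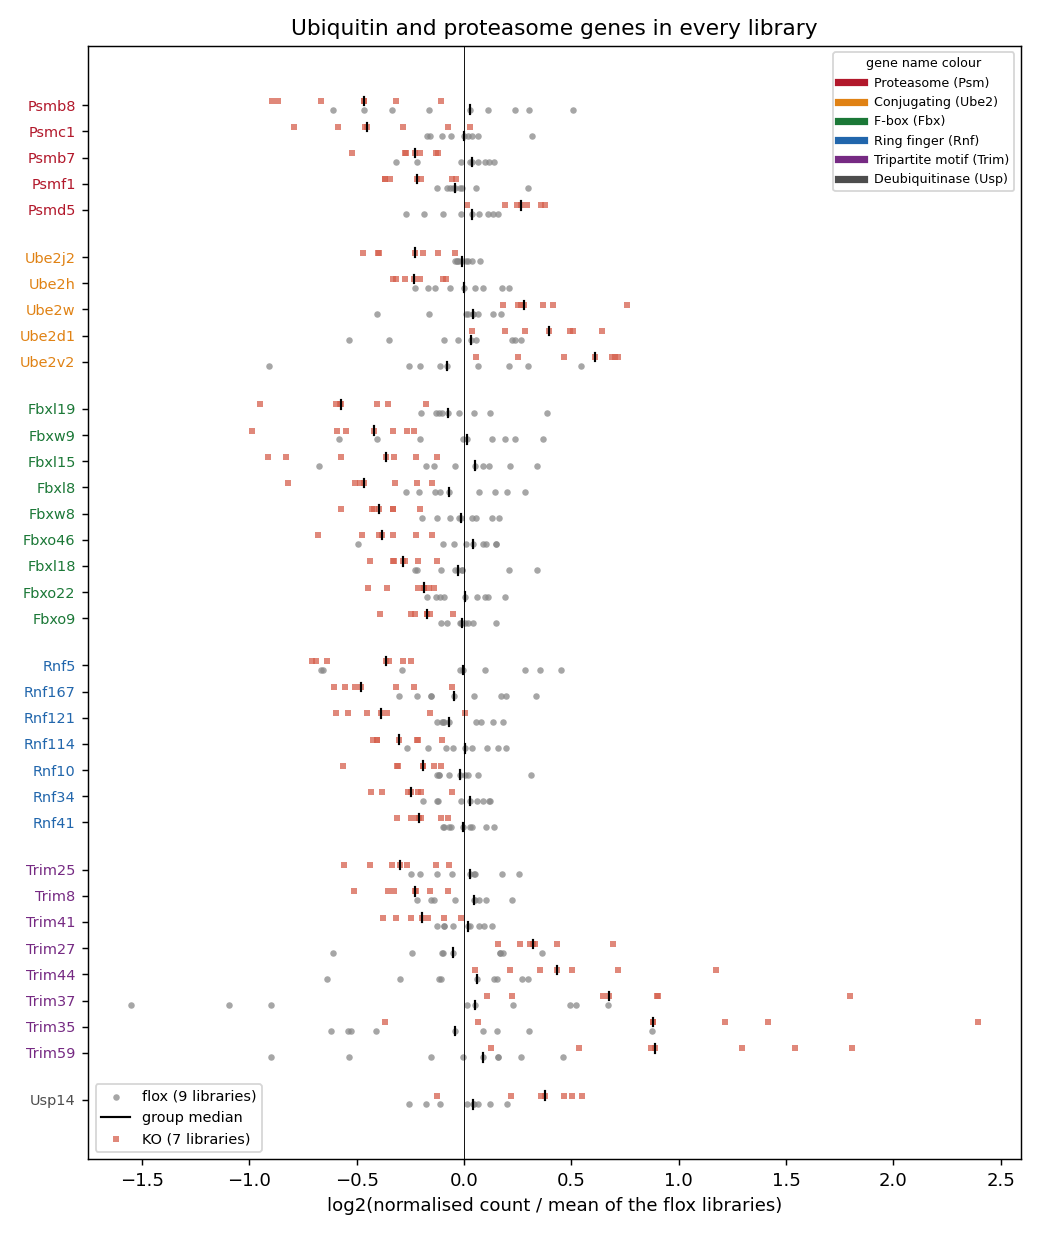
Each point is 1 library of 1 gene, as the log2 ratio of its normalised count to the mean of the 9 flox libraries (x axis); grey circles are flox, red squares are KO and black ticks are group medians. Genes are grouped by family, and the F-box and ring finger genes have their KO median left of 0, while 5 of 8 tripartite motif genes have it to the right.

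Upstream DNA of 3 genes is shown because they stand for the 3 main classes and carry motifs of factors known to control proteasome genes: Psmc1 was the only proteasome gene that passed limma, Ube2j2 had no overlap between groups, and Trim59 rose most among genes that passed. The stretches are RefSeq sequence of GRCm38.p6 before the transcription start, cut where a GENCODE exon begins, 5′ to 3′ on the gene's strand. Capitals mark a CCAAT box (CCAAT), an ETS core (CCGGAAG) or an antioxidant response element core (TGACNNNGC), the site type of the proteasome regulator Nfe2l1, on either strand. Psmc1 is chr12:100109952-100110153 on the plus strand, with a CCAAT box from base 175 before the start. An ETS core of Psmc1 lies nearer the start, where an exon is annotated, and is not in the stretch shown. Ube2j2 is chr4:155943573-155943812 on the plus strand, with an ETS core from base 9. Trim59 is chr3:69044756-69044992 on the minus strand, with an antioxidant response element core from base 220 and a CCAAT box from base 61, both on the opposite strand.
Psmc1: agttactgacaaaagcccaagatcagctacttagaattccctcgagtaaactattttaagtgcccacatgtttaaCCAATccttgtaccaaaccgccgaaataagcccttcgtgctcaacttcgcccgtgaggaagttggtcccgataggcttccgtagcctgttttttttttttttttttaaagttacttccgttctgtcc
Ube2j2: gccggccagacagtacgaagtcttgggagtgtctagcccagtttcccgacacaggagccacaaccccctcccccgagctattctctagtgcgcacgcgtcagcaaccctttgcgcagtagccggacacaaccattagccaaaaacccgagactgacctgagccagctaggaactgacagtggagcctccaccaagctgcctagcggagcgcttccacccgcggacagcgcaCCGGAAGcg
Trim59: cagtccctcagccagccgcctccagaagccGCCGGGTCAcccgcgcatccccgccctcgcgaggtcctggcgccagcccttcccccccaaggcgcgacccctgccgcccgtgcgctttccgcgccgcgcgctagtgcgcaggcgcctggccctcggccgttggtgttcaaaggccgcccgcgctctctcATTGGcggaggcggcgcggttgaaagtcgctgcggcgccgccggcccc

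The RefSeq promoter table held 26 of the 35 genes, and 250 bases before each start were searched. An antioxidant response element core was found for 1 of the 26 (Trim59), against 11.5% of all genes in the table. CCAAT was found for 8 of the 26 (30.8%), against 37.5% of all genes. The ETS core was found for 7 of the 26 (26.9%), namely Fbxo22, Fbxw9, Psmc1, Rnf114, Rnf41, Trim44 and Ube2j2, against 7.83% of all genes. These shares of all genes cover the whole promoter table, whether or not a gene is expressed in the duodenum. The share over listed genes is not given here, so whether the core is particular to these genes was not tested. Of 43 Psm genes in the same table, listed or not, 30.2% held the ETS core, 37.2% CCAAT and 11.6% the antioxidant response element core. Of the 7 genes with an ETS core, 6 were listed as lower and Trim44 as higher, where 25 of all 35 genes were listed as lower. A link between the core and the direction was not tested.

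Proteasome genes were listed as lower with 1 exception, Psmd5, whose log2 difference was -0.078 once a trend with GC share was removed from each library. That trend was fitted on the listed genes alone, whose direction in KO itself follows GC share. Here and below, its removal can therefore take out part of the group difference and does not decide whether a gene changed. RefSeq names 51 protein-coding Psm genes, of which 9.80% were listed, against 10.1% of all RefSeq protein-coding genes. Of the 15 core particle subunits only Psmb7 was listed, of the 6 regulatory particle ATPases only Psmc1, of 4 inducible and thymus subunits only Psmb8, of 5 activators and inhibitors only Psmf1, and of 8 assembly factors only Psmd5. Of 14 names of non-ATPase subunits of the regulatory particle, 0 were listed. An unlisted gene may have missed the authors' threshold or may not have been tested.

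Psmc1 encodes an ATPase of the ring that unfolds substrates, and lies at chr12:100110154-100123405. Its normalised count had a lowest, median and highest value of 1427, 1607 and 2003 in flox and 930.4, 1176 and 1643 in KO. KO replicate 2 lay above the flox median, 5 KO libraries lay below every flox library, and flox replicate 4 stood above the rest. The mean was 1609.7 ± 173 in flox (SD, n = 9) and 1263 ± 253 in KO (SD, n = 7). Psmc1 fell by 0.37 on the log2 scale (SE 0.10, adjusted p = 0.0394, limma).

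Psmb8 is the inducible catalytic subunit that replaces its constitutive counterpart in the immunoproteasome, and lies at chr17:34197721-34201454. Its normalised count ran from 1397 over a median of 2175 to 3029 in flox, and from 1148 over 1542 to 1979 in KO. All 7 KO libraries lay below the flox median, and 4 of them lay within the flox range. The mean ratio was the largest of the proteasome genes, 1.43-fold lower, but so was the spread, with a coefficient of variation of 25.5% in flox where counting alone gives 2.20%. Its log2 difference was -0.50 ± 0.16 (SE), which did not pass limma (adjusted p = 0.0565), and it was -0.24 without the 5 flox libraries that held pancreatic transcripts. The other genes of the inducible set (Psmb9 and Psmb10) were not listed.

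Psmb7 is a constitutive catalytic subunit of the core, Psmf1 is a proteasome-binding protein known as an inhibitor, and Psmd5 is a chaperone that helps assemble the base of the regulatory particle. Psmb7 ran from 469 over 599.7 to 645 in flox and from 408 over 499.6 to 539 in KO, with KO replicate 8 alone below every flox library. Psmf1 ran from 448 over 474 to 599 in flox and from 378 over 420.0 to 475 in KO, with flox replicate 1 far above the other flox libraries. Psmd5 ran the other way, from 225 over 279 to 304 in flox and from 274 over 327 to 354 in KO, and 6 KO libraries lay above every flox library while KO replicate 2 did not. None of these passed limma: the log2 difference was -0.24 for Psmb7 (adjusted p = 0.0664), -0.22 for Psmf1 (adjusted p = 0.0737) and 0.26 for Psmd5 (adjusted p = 0.0600). On a scale of normalised count per kilobase, flox levels were 833 for Psmc1, 779 for Psmb8, 171 for Psmb7, 75.8 for Psmf1 and 37.6 for Psmd5. Psmc1 and Psmb8 are neighbours in that order that lie within the spread of Psmb8 between flox libraries.

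Conjugating enzymes went both ways: 3 were listed as higher and 2 as lower, out of 37 in RefSeq (13.5%, against 10.1% of all RefSeq protein-coding genes). However, with the GC trend removed the log2 differences of the 3 higher genes were -0.14 (Ube2w), -0.074 (Ube2v2) and -0.015 (Ube2d1). Ube2w rose and Ube2j2 fell in limma, and both showed complete separation of the groups.

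Ube2j2 is anchored in the membrane of the endoplasmic reticulum and serves the removal of misfolded proteins there. Its locus is chr4:155943831-155959604. Flox libraries ran from 1562.5 over 1602 to 1695, a coefficient of variation of 2.73%, where counting alone gives 2.53%. KO libraries ran from 1161 over 1374 to 1562.1, and their coefficient of variation was 11.1%. KO replicate 2 lay just under the lowest flox library, so the absence of overlap rests on a margin that is small beside the spread. Ube2j2 fell by 0.26 on the log2 scale (SE 0.07, adjusted p = 0.0221, limma), from 1610.4 ± 44.0 (SD, n = 9) to 1347 ± 149.9 (SD, n = 7).

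Ube2w attaches ubiquitin to the amino terminus of proteins and lies at chr1:16540790-16619489. It ran from 125 over 171 to 187 in flox and from 188 over 201 to 281 in KO, with KO replicate 5 highest. Every KO library lay above every flox library, again by a small margin (187.2 against 188.4). Ube2w rose by 0.37 on the log2 scale (SE 0.10, adjusted p = 0.0368, limma), a ratio of means of 1.29.

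The other 3 conjugating enzymes did not pass limma. Ube2d1, a broadly used partner of many ligases, had a log2 difference of 0.38 ± 0.13 (SE, adjusted p = 0.0669, limma), with medians of 151 in flox and 194 in KO. Ube2v2, a catalytically inactive variant that pairs with Ube2n to build chains used in DNA repair, had a log2 difference of 0.54 ± 0.19 (SE, adjusted p = 0.0796, limma) at medians of 48.6 and 78.2. Ube2h had a log2 difference of -0.21 ± 0.07 (SE, adjusted p = 0.0791, limma) at medians of 863 and 736. In all 3 genes every KO library lay on 1 side of the flox median.

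**Figure D2:**
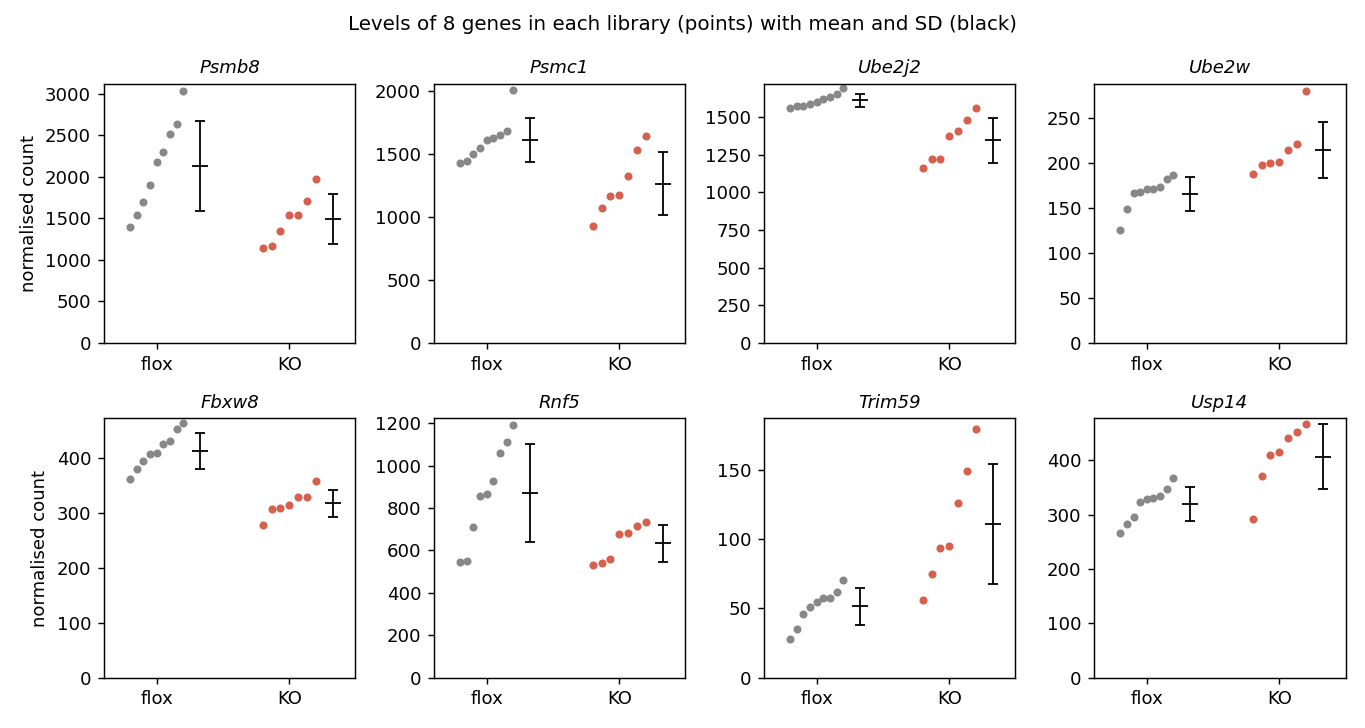
Normalised counts of 8 genes (y axes, each from 0), with 1 point per library, grey for the 9 flox and red for the 7 KO libraries, and a black mean with SD bars. Points are sorted by value within each group; the flox points of Ube2j2 sit in a narrow band of 1562 to 1695, while those of Psmb8 spread from 1397 to 3029.

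Among ligases, the listed F-box genes were all lower, as were the listed ring finger genes. F-box proteins are the substrate-binding subunits of cullin ligases. All 9 listed of 78 in RefSeq (11.5%, against 10.1% of all RefSeq protein-coding genes) were lower in every fit except for Fbxl18. In limma 8 of the 9 fell, against 820 of the 1278 fitted genes listed as lower. Of the 9, 8 had a GC share of 50% or more, and the family's median was 56.5%. Of all listed genes, 68.0% were lower at 50% to 55% and 87.9% at 55% or more. The log2 difference of Fbxl18 was 0.039 once the GC trend was removed. With that trend removed the other 8 had log2 differences of -0.26 (Fbxo22) to -0.024 (Fbxl15), with -0.13 for Fbxl19 and -0.046 for Fbxw8. Their median log2 difference was -0.38, against -0.37 for all genes listed as lower.

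Fbxl19, which binds unmethylated CpG DNA, ran from 782 over 853 to 1173 in flox and from 465 over 603 to 793 in KO, with 6 KO libraries below every flox library. It fell by 0.51 on the log2 scale (SE 0.10, adjusted p = 0.0102, limma). Fbxw8, the partner of Cul7, at chr5:118064965-118155464, ran from 361 over 409 to 463 in flox and from 278 over 314 to 359 in KO. No KO library of Fbxw8 reached a flox library, and it fell by 0.38 (SE 0.07, adjusted p = 0.00852, limma), the smallest adjusted p of the 35 genes. Fbxw8 was picked out after its values were seen, for this gap.

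Fbxw9 ran from 373 over 563 to 719 in flox and from 282 over 417 to 474 in KO, with 2 KO libraries below all flox libraries, and fell by 0.45 (SE 0.13, adjusted p = 0.0459, limma). The 5 flox libraries with pancreatic transcripts were at 556.5 to 719 for Fbxw9 and the other 4 at 373 to 563, and without those 5 its log2 difference was -0.19. Fbxl8 ran from 226 over 259 to 331 in flox and from 154 over 197 to 245 in KO, and fell by 0.41 (SE 0.11, adjusted p = 0.0278, limma). Fbxo9, which targets regulators of the mTOR kinase family, ran from 705 over 754 to 843 in flox and from 579 over 673 to 733 in KO, and fell by 0.20 (SE 0.06, adjusted p = 0.0465, limma). Fbxl15, which targets the ligase Smurf1, had a log2 difference of -0.45 ± 0.14 (SE, adjusted p = 0.0561, limma), with medians of 259.8 and 195 and 5 KO libraries within the flox range. The other 3 F-box genes (Fbxl18, Fbxo22 and Fbxo46) fell by 0.24 to 0.36 on the log2 scale, with adjusted p-values of 0.0427 to 0.0491 in limma.

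The 7 ring finger genes, ligases with a zinc-binding domain that holds the conjugating enzyme, were also lower throughout except for Rnf10 (0.054) and Rnf114 (0.0078) once the GC trend was removed. They were 7 of 85 in RefSeq (8.24%, against 10.1% of all RefSeq protein-coding genes), with a median log2 difference of -0.29. Rnf114, Rnf121 and Rnf167 fell in limma. Rnf121, a membrane protein of the secretory pathway, ran from 1294 over 1346 to 1600.4 in flox and from 934 over 1081 to 1416 in KO, where KO replicate 2 alone entered the flox range. It fell by 0.35 (SE 0.08, adjusted p = 0.0196, limma). Rnf167, a ligase of endosomes and lysosomes, ran from 1578 over 1887 to 2458 in flox and from 1282 over 1397 to 1878 in KO, and fell by 0.38 (SE 0.10, adjusted p = 0.0306, limma). Rnf114 ran from 1571 over 1898 to 2165.7 in flox and from 1409.8 over 1533 to 1759.9 in KO, and fell by 0.29 (SE 0.08, adjusted p = 0.0287, limma).

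Rnf10 had the highest mean of the 35 genes, and Rnf5 the widest flox spread among the lower genes. Rnf10 ran from 3844 over 4143 to 5201 in flox and from 2833 over 3670.3 to 3895 in KO, and its log2 difference of -0.25 ± 0.08 (SE) did not pass limma (adjusted p = 0.0522). Rnf5, an endoplasmic reticulum ligase at chr17:34601091-34603690, ran from 548 over 868 to 1190.1 in flox and from 532 over 676 to 733 in KO. Its coefficient of variation was 26.7% in flox against 3.44% from counting, 5 KO libraries lay within the flox range, and the log2 difference of -0.42 ± 0.15 (SE) did not pass limma (adjusted p = 0.111). Without the 5 flox libraries with pancreatic transcripts the log2 difference of Rnf5 was -0.15. Flox replicate 10 was the highest flox library and flox replicates 1 and 2 the lowest pair for both Rnf5 and Psmb8, which lie on the same stretch of chromosome 17. Rnf34 and Rnf41 had log2 differences of -0.25 and -0.19 and did not pass limma (adjusted p = 0.0575 and 0.0637).

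Of the 3 ligase families, the tripartite motif genes alone had members on both sides, 5 higher and 3 lower. They were 8 of 70 in RefSeq (11.4%, against 10.1% of all RefSeq protein-coding genes), and they split by level. With the GC trend removed the log2 differences of the lower genes Trim8 and Trim41 were 0.10 and 0.14. The 3 lower genes had means of 465 to 3786 normalised counts over the 16 libraries and the 5 higher genes means of 72.3 to 244. Trim59, at chr3:69035288-69044755, ran from 27.6 over 54.7 to 70.7 in flox and from 56.0 over 95.2 to 179.6 in KO, with 6 KO libraries above every flox library. It rose by 1.04 on the log2 scale (SE 0.24, adjusted p = 0.0162, limma), from 51.4 ± 13.3 (SD, n = 9) to 111 ± 43.4 (SD, n = 7). The log2 difference of Trim59 was 0.22 with the level of non-epithelial markers as a covariate, a fit in which it did not pass, and 0.48 with the GC trend removed, where it did not pass either. Trim35 ran from 31.4 over 46.8 to 88.4 in flox and from 37.3 over 88.7 to 253 in KO, and its log2 difference of 0.99 ± 0.32 (SE) did not pass limma (adjusted p = 0.0613). Its highest flox library was replicate 2 and its highest KO library replicate 1, which were also those with the highest summed non-epithelial markers in their groups.

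Trim37, known for its role at centrosomes and peroxisomes, had a log2 difference of 0.91 ± 0.32 (SE, adjusted p = 0.0863, limma) and ran from 18.2 over 55.4 to 85.1 in flox and from 57.6 over 85.4 to 186 in KO. Trim44 had a log2 difference of 0.52 ± 0.16 (SE, adjusted p = 0.0526, limma), with medians of 141 and 183, and Trim27 one of 0.38 ± 0.12 (SE, adjusted p = 0.0592, limma), with medians of 209 and 271. KO replicate 1 was the highest KO library for Trim27, Trim35, Trim37, Trim44 and Trim59, and KO replicate 2 the lowest for all of these but Trim37. Of the lower genes, Trim25, the ligase that activates the RNA sensor RIG-I, ran from 3465 over 4192 to 4911 in flox and from 2794 over 3345 to 3919.5 in KO, and fell by 0.29 (SE 0.09, adjusted p = 0.0450, limma). Trim8 fell by 0.26 (SE 0.08, adjusted p = 0.0441, limma), with medians of 908 and 750.3. Trim41 had a log2 difference of -0.20 ± 0.07 (SE, adjusted p = 0.0755, limma), with medians of 499 and 430.3.

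Of the Usp family of deubiquitinases, Usp14 was the only one listed of 57 in RefSeq (1.75%, against 10.1% of all RefSeq protein-coding genes). The unlisted ones may have missed the authors' threshold or may not have been tested. Usp14 sits on the proteasome and trims chains from bound substrates. It ran from 267 over 329 to 367 in flox and from 293 over 415 to 467 in KO, with 6 KO libraries above every flox library and KO replicate 8 low. Usp14 rose by 0.34 on the log2 scale (SE 0.10, adjusted p = 0.0387, limma), from 319.5 ± 31.9 (SD, n = 9) to 407 ± 59.5 (SD, n = 7), and its log2 difference was -0.19 with the GC trend removed. Its exons share 26.0% of their bases with Thoc1 on the opposite strand. Thoc1 was itself listed as higher, at 0.45 on the log2 scale in the authors' deposited table, and the library kit does not mark strand, so reads of the shared part cannot be told apart.

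Between the classes, median log2 differences were -0.24 for proteasome genes, 0.37 for conjugating enzymes, -0.27 for ligases and 0.34 for Usp14, beside -0.25 for all listed genes. In limma 1 of 5 proteasome genes, 2 of 5 conjugating enzymes, 14 of 24 ligases and 1 of 1 deubiquitinase passed. The classes also differed in level and base composition. The 10 higher genes had a median mean level of 164 normalised counts and a median GC share of 44.4%, and the 25 lower genes 717 and 52.5%. The same ordering held over the whole table: of listed genes with a mean of 1000 or more, 92.7% were lower, and of those at 50 to 100, 12.4% were.

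Set against genes of like level, the members were lower more often than the table in each bin from 100 up. The same held in each bin of GC share from 40% up. The bins hold few members, and these gaps were not tested. All 8 members with a mean of 1000 or more and all 11 with 400 to 1000 were listed as lower, where the table gave 92.7% and 76.2%. At 200 to 400 it was 5 of 8 (46.8% of the table), at 100 to 200 it was 1 of 4 (19.9%), and at 50 to 100 it was 0 of 4 (12.4%). By GC share of the longest transcript, 9 of 9 members at 55% or more were lower (87.9% of the table), 7 of 9 at 50% to 55% (68.0%), 7 of 10 at 45% to 50% (35.9%), 2 of 3 at 40% to 45% (11.8%) and 0 of 4 under 40% (4.59%). Psmb7 (40.8%) and Rnf34 (44.3%) were the 2 lower genes under 45%, and Trim27 (51.4%) and Trim35 (52.5%) the 2 higher genes at 50% or more.

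**Figure D3:**
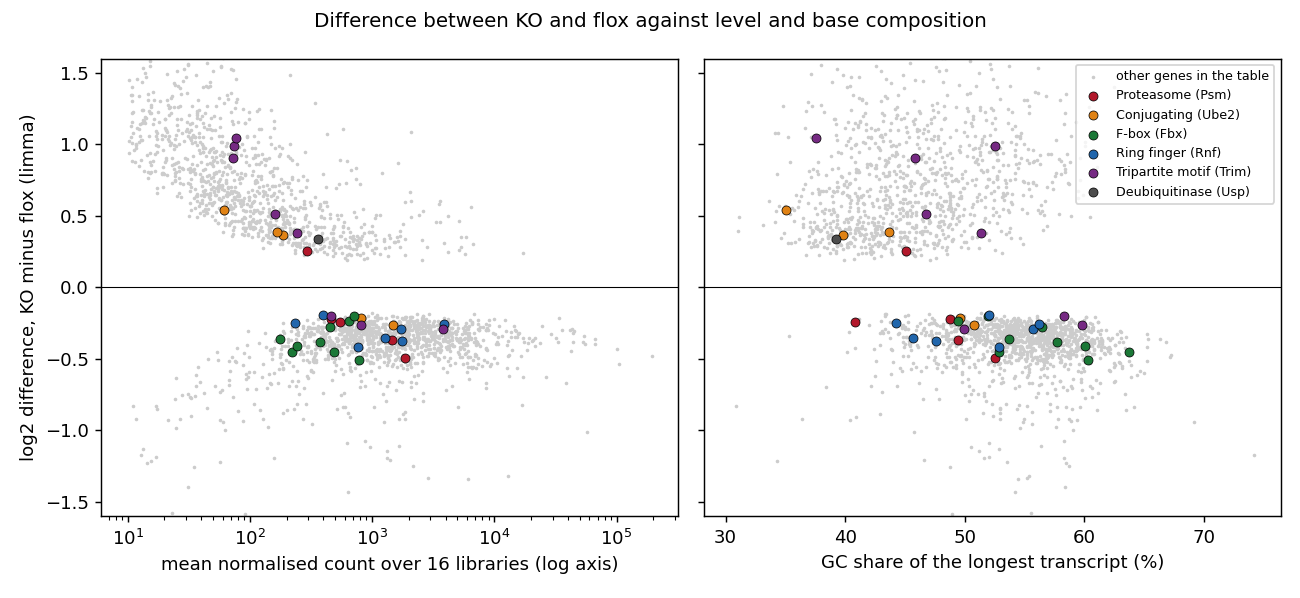
The log2 difference between KO and flox from limma (y axis; genes with larger differences lie outside the panels) against the mean normalised count over 16 libraries (left, log axis) and the GC share of the longest transcript (right); grey points are the other listed genes and coloured points the 35 genes by family. All coloured points right of a mean of 400 on the left panel lie below 0, among grey points of which most do too.

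Genes of the pathway outside the symbol rule gave a like mixture. The lists held ubiquitin genes, activating enzymes, ubiquitin-like modifiers, cullins, other ligases, the anaphase-promoting complex, other deubiquitinases with Senp genes, and substrate delivery factors. Of their 223 names 30 were listed, 19 lower and 11 higher, and 12 fell and 4 rose in limma (54.3% of the table passed). Ubb, a polyubiquitin gene, fell by 0.34 (SE 0.10, adjusted p = 0.0419, limma), from 12589 ± 1518 (SD, n = 9) to 10005 ± 1618 (SD, n = 7), and its log2 difference was -0.090 with the GC trend removed. Uba2, which activates SUMO, had a log2 difference of 0.29 ± 0.09 (SE, adjusted p = 0.0570, limma). Of 10 ubiquitin-like modifiers and 17 subunits and cofactors of the anaphase-promoting complex, 0 were listed.

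Of 37 cullins and cullin adaptors 3 were listed, all lower: Ddb1 fell by 0.32 and Keap1 by 0.39 in limma, and Cul7, the cullin that Fbxw8 binds, had a log2 difference of -0.32 that did not pass (adjusted p = 0.0746). Of 83 names of other ligases 15 were listed. Mkrn1, Cblc, Pja1, March6, March8 and Hectd3 fell by 0.27 to 0.40, and Uhrf1, a ligase of DNA replication, rose with a ratio of means of 2.16 (adjusted p = 0.0342, limma). Wwp2, Herc2 and Ubr4 were listed as lower and Mylip, Nedd4, Mdm4, Wwp1 and March1 as higher without passing. With the GC trend removed the log2 difference was -0.15 for Ddb1, -0.052 for Keap1, -0.017 for Cblc and 0.014 for Hectd3. In the same fit it was -0.26 for Mkrn1, -0.28 for Pja1, -0.64 for March6, -0.24 for March8 and 1.48 for Uhrf1.

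Of 38 names of other deubiquitinases and Senp genes 7 were listed, 4 higher and 3 lower. Senp proteins remove ubiquitin-like modifiers such as SUMO, so Senp1, among the 4 higher genes, is not a deubiquitinase. Uchl3 rose by 0.55 (SE 0.13, adjusted p = 0.0183, limma), with no overlap between 110.5 to 171 in flox and 172 to 299.8 in KO. Brcc3 and Senp1 rose by 0.31 and 0.29 in limma, Otud5 fell by 0.24, and Zup1, Otub1 and Otud7b did not pass. With the GC trend removed the log2 difference was -0.0016 for Uchl3, -0.30 for Brcc3, 0.15 for Senp1 and -0.010 for Otud5. Of substrate delivery factors, Ubxn6 and Bag6 fell by 0.44 and 0.23 in limma, and Nsfl1c had a log2 difference of -0.34 that did not pass. Bag6 lay at 0.14 and Ubxn6 at -0.26 with the GC trend removed. Among 8 regulators of proteasome genes 4 were listed, all lower. Nfe2l1, the factor that raises proteasome genes when proteasome activity falls, fell by 0.32 (SE 0.08, adjusted p = 0.0221, limma) with no overlap between groups, and its log2 difference was -0.063 with the GC trend removed. Foxo4 fell by 0.47 and Nfyc by 0.24 in limma, and Nfya had a log2 difference of -0.34 that did not pass (adjusted p = 0.0766). Foxo4 lay at -0.19, Nfyc at -0.24 and Nfya at -0.26 with the GC trend removed.

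Single libraries carried much of the extremes. KO replicate 1 was the highest KO library for 5 of the 10 higher genes and the lowest for 8 of the 25 lower genes. KO replicate 2 was the opposite, lowest for 6 of the 10 and highest for 11 of the 25, and it lay within the flox range for 25 of the 35 genes, against 60.5% of the table. KO replicate 1 lay within that range for 6 of the 35, against 16.0% of the table. The summed non-epithelial markers were highest of the KO group in KO replicate 1 and lowest in KO replicate 2. Flox replicate 4 was the highest flox library for 9 of the 25 lower genes and had the highest summed enterocyte markers.

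Calls depended on which libraries were in the fit. Fbxl19, Fbxw8 and Trim59 passed limma in all 16 fits that left out 1 library, 3 of the 35 genes against 19.8% of the 2339 fitted, and Rnf121 and Ube2j2 passed in 15. In place of 18, the number passing was 4 without KO replicate 7 (22.2% of the table), 5 without KO replicate 1 (27.9%), KO replicate 5 (26.6%) or flox replicate 3 (26.2%), and 6 without flox replicate 10 (27.6%). It was 10 without KO replicate 4 (37.0%), flox replicate 4 (35.8%) or flox replicate 6 (45.1%). It was 24 without flox replicate 2 (62.1%) and 23 without KO replicate 2 (62.4%), and 12 to 15 without each of the others. The members' count went up and down with that of the table. Without the 5 flox libraries with pancreatic transcripts 0 of the 35 passed in limma (22 at an unadjusted p under 0.05), against 0.47% of the table (73.0% unadjusted). All 35 kept their direction, and 4 differences (Fbxw9, Psmb8, Rnf5 and Trim8) became smaller by over 1.5 times, against 8.09% of the table. In a limma fit with the mean level of non-epithelial markers as a covariate 0 passed (6 at an unadjusted p under 0.05), against 0.299% of the table (24.8% unadjusted). The covariate was built from the 12 listed markers alone, all listed as higher in KO. Its mean was 5.01 in flox and 6.18 in KO on the log2 scale. Since it moves with the groups, the fit cannot separate the markers' part from that of the deletion. In that fit 23 of the 35 differences became smaller by over 1.5 times or changed sign, against 57.5% of the table, and those that changed sign were Trim35 (-0.45) and Trim44 (-0.0018).

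Scaling changed the balance of the calls. When the libraries were scaled by TMM over the listed genes, the median of all listed genes moved by 0.14, and 8 genes rose and 2 fell in limma in place of 3 and 15 (30.9% and 8.08% of the table), and no gene changed sign. The 2 were Fbxl19 and Fbxw8. The median log2 difference of the 35 genes and that of all listed genes moved together, from -0.25 for both to -0.11 for both. With the GC trend removed in each library, which moved that median by 0.22, 0 rose and 4 fell (Psmb7, Rnf34, Rnf121 and Rnf167), against 3.25% and 8.04% of the table. Of the 35 differences 22 became smaller by over 1.5 times or changed sign, against 63.8% of the table, and 10 of them changed sign. The GC trend came from listed genes alone, of which 4.59% were lower under 40% GC and 87.9% at 55% or more. Its removal can thus take out group difference, so a smaller or reversed value does not decide whether a gene changed. edgeR's quasi-likelihood test on recovered reads called 5 higher and 16 lower, against 21.1% and 35.1% of the table. DESeq2 on the same reads called 33 of the 35, against 90.3% of the table.

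**Figure D4:**
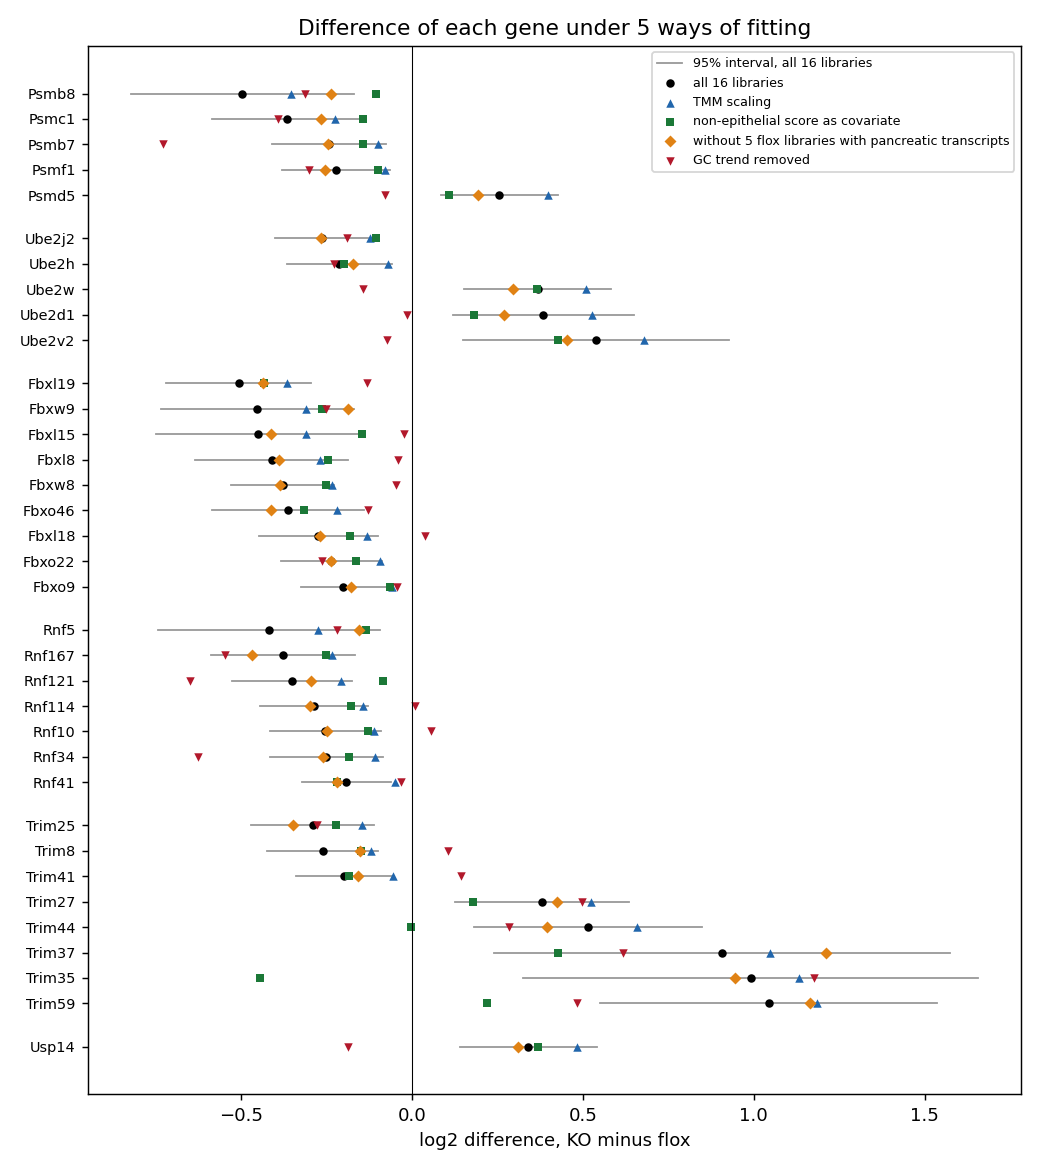
The log2 difference of each of the 35 genes (x axis, KO minus flox) under 5 fits; black circles with 95% intervals are all 16 libraries, and coloured symbols are TMM scaling, the non-epithelial covariate, the 11 libraries without pancreatic transcripts and the removed GC trend. Blue triangles lie to the right of the black circles throughout, and red triangles cross 0 for 10 genes.

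Annotation limits apply to some genes. In GENCODE M21, 15 of the 35 genes share exon bases with a gene on the opposite strand, and the kit does not mark strand. The largest shares were 33.4% for Fbxw8 (with Gm9754), 26.0% for Usp14, 25.6% for Fbxl15 (with Cuedc2) and 24.7% for Rnf5 (with Gm20463). The partners of Rnf114 (Spata2) and Rnf167 (Slc25a11) were also listed as lower. A pseudogene named after Psmb7 is annotated, which could share reads with it. On the chromosome of Ephb4, Fbxl18 (5.49 Mb away), Rnf34 (14.5 Mb), Fbxw8 (19.2 Mb) and Rnf10 (22.1 Mb) were all listed as lower.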

How the data were processed

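TRIzol extraction, selection of messenger RNA on poly-T beads and a NEBNext Ultra library kit are stated per the labels' protocols. The submitters' processing notes name the tools DESeq2 1.20.0, HISAT2 2.0.5 and featureCounts 1.5.0-p3 and the build GRCm38 (mm10), without settings. The deposited signal in each library column is a read count divided by 1 size factor, since 100% of values were whole multiples of 1 step within 0.0001 reads. Size factors ran from 0.878 to 1.38, and total depth is unknown. For KO replicates 1 and 3 the recovered reads could not be tested by the automatic unit check. The deposited log2 fold changes, p-values and adjusted p-values are those of the authors, whose Benjamini-Hochberg adjustment covered 16488 genes.

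limma 3.58.1 (trend, robust) was fitted to log2(value + 1) over 9 flox and 7 KO libraries, keeping the 2339 genes whose mean reached 10, two-sided, and adjusted over 16488 genes with unlisted genes at a p of 1. A difference on this scale understates the change of low genes. Alternatives were pseudocounts, filters, TMM scaling, edgeR 4.0.16 and DESeq2 1.42.0 on recovered reads, a replicate block, a non-epithelial covariate and leaving out each library. Leaving out 5 flox libraries and removing a GC trend were added after seeing the data. Both the GC trend and the non-epithelial score used listed genes alone. The fits were tested on simulated data in which 200 of 2339 genes were changed. There limma called 8.0% of genes changed 1.25-fold, 44.0% at 1.5-fold, 78.0% at 2-fold and 100% at 4-fold. Fewer genes changed there than passed in the data, so these shares need not hold for the data. A gene that did not pass limma is thus not shown to be unchanged. The members and gene lists were chosen with earlier results of these data known. All Psm, Ube2 and Usp genes are named, and of the F-box, Rnf and Trim families the 4 largest rises, the 4 largest falls and the 2 highest means, with the listed genes of the other pathway lists; further names were chosen after their values were seen. No 2 libraries of a group were duplicates: chi-square divided by its degrees of freedom was at least 16.1.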

Additional observations from a re-analysis of the deposited data

Results flagged for a closer look

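In 11 of 72 groups of libraries (35 genes and Ephb4, each in flox and in KO) 1 library stood apart from the rest by Dixon's test at the 95% level, which chance alone flags in about 5% of groups.

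Flox replicate 4 was far above the other flox libraries for Fbxl19 (1173, next 977), Psmc1 (2003, next 1682) and Rnf10 (5201, next 4379.99). Its exocrine pancreas markers other than Spink1 summed to 31498. Flox replicate 6 was low for Fbxo46 (139, next 184). Flox replicate 1 was high for Psmf1 (599, next 507). Flox replicate 2 was high for Trim35 (88.4, next 59.5).

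KO replicate 1 was high for Trim35 (253, next 128), Trim37 (186, next 100.1) and Ephb4 (84.7, next 37.3). It also had the highest summed non-epithelial markers, 3332. KO replicate 5 was high for Ube2w (281, next 222), and KO replicate 8 was low for Psmb7 (408, next 484). The part of these libraries' marker levels in these values was not tested.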

How the results depend on the processing

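Pseudocounts of 0.5 and 5, no filter on low values and a minimum mean of 50 kept the direction of all 35 genes, and the counts stayed within 1.5 times of the main ones (with the minimum of 50, 3 rose and 11 fell). In place of 3 rising and 15 falling genes, TMM scaling gave 8 and 2, edgeR 5 and 16, DESeq2 8 and 25 (90.3% of the table), the GC trend removed 0 and 4, and the replicate block, the non-epithelial covariate and the fit without the 5 flox libraries 0 and 0 each. By class, DESeq2 called 5 proteasome genes, 4 conjugating enzymes and 23 ligases, TMM 6 ligases, and the GC fit 3 ligases with 0 conjugating enzymes and 0 deubiquitinases. The 3 fits with 0 calls gave 0 in each class. The cause of these changes was not tested. All 3 fits with 0 calls have fewer residual degrees of freedom than the main fit. So do the fits without 1 library, in which 4 to 24 genes passed. The covariate moves with the groups. Leaving out 1 library at a time gave 1 to 7 rising and 3 to 17 falling genes, and 0 to 3 proteasome genes, 0 to 4 conjugating enzymes, 4 to 18 ligases and 0 to 1 deubiquitinases passing.

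Median log2 differences of the classes held within -0.28 to -0.20 (proteasome), 0.30 to 0.39 (conjugating enzymes), -0.28 to -0.24 (ligases) and 0.31 to 0.42 (Usp14) without 1 library. They were -0.10, 0.51 and -0.12 for the first 3 classes with TMM, and -0.11, 0.18 and -0.18 with the covariate. With the GC trend removed the median was -0.14 for conjugating enzymes, -0.19 for Usp14 and -0.037 for ligases.

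Differences that changed sign with the GC trend removed were Fbxl18 0.039, Psmd5 -0.078, Rnf10 0.054, Rnf114 0.0078, Trim41 0.14, Trim8 0.10, Ube2d1 -0.015, Ube2v2 -0.074, Ube2w -0.14, Usp14 -0.19, Bag6 0.14, Brcc3 -0.30, Cul7 0.038, Hectd3 0.014, Mdm4 -0.14, Otub1 0.10, Ubr4 0.023, Uchl3 -0.0016, Wwp1 -0.22, Wwp2 0.050 and Zup1 -0.28. With the covariate they were Trim35 -0.45, Trim44 -0.0018, March1 -0.36 and Mylip -0.46. Whether the shared replicate numbers pair the libraries is not settled. Over the listed genes, deviations of same-numbered libraries correlated at -0.43 to 0.37, and only 1 of 6 numbers matched best with its own. With the replicate block 0 genes passed limma (0.385% of the table), and 25 of 35 had an unadjusted p under 0.05 (76.6% of the table). The Ephb4 permutation p was 0.000437 on the linear scale. The depth behind low genes such as Ube2v2 limits their precision, with a counting variation of 14.1% in flox.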
